A study of Rattus norvegicus with 26 samples.

Results

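Nrg1, Pla2r1, Pde4b and Tsc22d1 are 4 signalling genes whose expression was followed on all 26 arrays of a dose series of TCDD and PCB 126 in primary rat hepatocytes. Every probe set that the platform's annotation gives to one of these genes alone was taken, which made 13 of the 8740 non-control probe sets. Nrg1 had 7 of them, Pde4b 4, Pla2r1 1 and Tsc22d1 1. The genes were chosen by their expression values, which followed the dose of both chemicals, so their dose slopes and their differences from vehicle are described here without a test.

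The hepatocytes came from livers of female Sprague Dawley rats of the stock Crl:CD(SD)IGS BR, whose age is not given in the sources used here, and were kept as 2 pools of 3 rats each. They received TCDD, the most studied of the chlorinated dioxins, or PCB 126, a biphenyl whose chlorinated rings can lie flat, or only the vehicle (0.5% DMSO), and were taken after 48 hours. TCDD was given at 1e-05, 0.001, 0.1, 10 and 316 nM in both pools and at 0.01 and 1 nM in pool 2 only. PCB 126 was given at 0.001, 0.1, 10, 1000 and 10000 nM in both pools and at 0.01 and 1 nM in pool 2 only. That gave 12 arrays of TCDD, 12 of PCB 126 and 2 of vehicle. Each pool is 1 biological unit of mixed animals, with 1 array per dose. A p-value here thus reflects array-to-array spread and not the spread between animals. Both the number of arrays and the presence of only 2 pools limit the precision. A p-value between the pools compares 1 such unit with 1 other. Values are log2 expression as deposited, and a difference of 1 is a 2-fold difference in signal.

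Both chemicals are ligands of the aryl hydrocarbon receptor (AhR), a transcription factor that, once bound, pairs with ARNT and attaches to DNA elements with the core GCGTG. Its best known liver targets are the cytochromes Cyp1a1, Cyp1a2 and Cyp1b1 and the enzymes Aldh3a1 and Nqo1. The 4 genes here are none of these enzymes. Nrg1 encodes neuregulin 1, a growth factor of the EGF family that binds the receptors ErbB3 and ErbB4. Pla2r1 encodes a transmembrane receptor of the C-type lectin type that binds secretory phospholipases A2. Pde4b encodes a phosphodiesterase that breaks down cyclic AMP, the messenger of glucagon and adrenaline in the liver. Tsc22d1 encodes a leucine zipper protein first described as a transcript raised by TGF-beta.

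Promoters of Pla2r1, Pde4b and Tsc22d1 are shown because these genes move with doses of AhR ligands, and the capitals mark the AhR core. Nrg1 was not searched. GCGTG was searched on both strands of the windows from 250 bases before to 50 after each RefSeq start in build GRCr8 (CACGC on the printed strand is a match on the other). The Pla2r1 window, chr3:65422286-65422585 on the minus strand, holds 3 matches, at bases -181, -42 and 30 from the start, and the last lies within the longer form TNGCGTG. The first Pde4b window, chr5:122028706-122029005 on the plus strand, holds 1 match at base 25. The second Tsc22d1 window, chr15:58256751-58257050 on the plus strand, holds 1 match at base -209.
Pla2r1: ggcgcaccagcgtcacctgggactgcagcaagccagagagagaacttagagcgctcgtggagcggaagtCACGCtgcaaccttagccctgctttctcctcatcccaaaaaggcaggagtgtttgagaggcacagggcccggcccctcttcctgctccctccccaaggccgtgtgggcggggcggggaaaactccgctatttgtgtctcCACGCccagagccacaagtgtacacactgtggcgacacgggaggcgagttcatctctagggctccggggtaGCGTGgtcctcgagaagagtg
Pde4b start 1: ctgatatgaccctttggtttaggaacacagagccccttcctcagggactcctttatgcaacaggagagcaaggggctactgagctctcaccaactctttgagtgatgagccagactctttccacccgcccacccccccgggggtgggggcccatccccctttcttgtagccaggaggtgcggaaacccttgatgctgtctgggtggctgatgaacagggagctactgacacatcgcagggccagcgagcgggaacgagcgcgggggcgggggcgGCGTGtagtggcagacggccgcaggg
Tsc22d1 start 2: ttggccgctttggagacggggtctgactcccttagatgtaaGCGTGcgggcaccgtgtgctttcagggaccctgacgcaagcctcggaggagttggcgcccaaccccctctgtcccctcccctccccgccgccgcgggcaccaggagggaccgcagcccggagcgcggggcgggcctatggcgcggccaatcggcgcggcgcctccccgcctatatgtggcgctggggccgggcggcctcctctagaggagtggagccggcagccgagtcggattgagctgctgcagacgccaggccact
The other annotated starts of Pde4b and Tsc22d1 had 0 matches in their windows. Of all 33469 promoter windows of this length, 29.7% hold at least 1 GCGTG, 3.59% hold 3 or more and 4.89% hold TNGCGTG. A match is a stretch of letters and not a measured site, and the files do not say from which start the transcripts under the probe sets arise.

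Some arrays stood apart before any of the 4 genes is considered. Array medians were 3.58 ± 0.07 in pool 2 (SD, n = 15) and 3.85 ± 0.08 in pool 1 (SD, n = 11). The PCB 126 array at 0.001 nM in pool 2 read 10.80 for Cyp1a1, against 7.91 at 0.01 nM in the same pool and 3.21 at 0.001 nM in pool 1. The TCDD array at 316 nM in pool 2 read 11.69 for Cyp1a1, against 12.37 at 10 nM in that pool. Both levels go against the order of the labelled doses. Smaller drops occurred among other high doses. With PCB 126 in pool 2, Cyp1a1 read 12.30 at 1000 nM and 12.05 at 10000 nM. In pool 1 it read 12.63 at 10 nM, against 12.41 and 12.43 at 1000 and 10000 nM. Whether labels or doses of any array were mixed up was not tested, and every dose here is the labelled one. The PCB 126 array at 10000 nM in pool 2 had a median of 3.78, the highest of that pool. No arrays were identical, and the closest pair was TCDD at 316 nM and PCB 126 at 1 nM in pool 2 (r = 0.997). Albumin averaged 14.21, and all 8 hepatocyte markers on the array passed the filter on dim probe sets.

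Nrg1 was higher with both chemicals in 3 of its 7 probe sets. With TCDD in pool 2, U02320_s_at read 6.62 with vehicle, then 7.35, 7.34, 7.21, 8.14, 8.55, 8.59 and 7.9 from 1e-05 to 316 nM. In pool 1 it read 6.58 with vehicle, then 6.47, 7.44, 6.65, 7.66 and 8.01 over the 5 doses given there. The levels at 10 and 316 nM were above both vehicle arrays, and the pool 1 array at 0.1 nM was near vehicle while the pool 2 array at that dose was not. With PCB 126 in pool 2 the probe set read 7.5, 7.19, 7.45, 8.07, 8.34, 8.42 and 8.0 from 0.001 to 10000 nM. Pool 1 gave 6.75, 6.91, 8.03, 8.24 and 7.72. Every PCB 126 array lay above both vehicle arrays, and the arrays from 1 nM up were the highest.

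At the 2 highest doses of TCDD the mean of U02320_s_at was 1.44 ± 0.29 log2 (SE) above vehicle, or 2.72-fold, and at those of PCB 126 1.5 ± 0.29, or 2.83-fold. U02315_g_at showed larger differences, with 7.09 to 7.93 at the 2 highest TCDD doses and 7.30 to 7.62 at those of PCB 126, against 5.02 and 6.01 with vehicle. These are 4.39-fold and 3.99-fold. The vehicle array of pool 2 was the lower of the pair. Part of these differences was already present at the lowest doses. With the lowest TCDD dose U02315_g_at lay 1.05 log2 above its own vehicle array in pool 2 and 0.44 in pool 1. With the lowest PCB 126 dose these were 1.56, on the array that stood apart, and 0.42. The next TCDD dose gave 1.17 in pool 2 and -0.22 in pool 1. At the 2 highest doses U02322_s_at was 2.24-fold above vehicle with TCDD and 2.10-fold with PCB 126. The treated and vehicle arrays did not overlap at those doses in any of the 3 probe sets, which choosing the genes by dose favours. Of all 5197 probe sets, 3.85% with TCDD and 4.44% with PCB 126 lay wholly above vehicle in this way. In bulk samples such as these, more RNA per cell and more cells of a type cannot be told apart.

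The other 4 Nrg1 probe sets did not share this pattern. M92430_at (2.27 to 3.31), U02315_at (2.8 to 3.35) and U02318_at (2.44 to 3.02) never exceeded 3.71, the median of all values, and were not tested. U02316_s_at read 3.5 to 4.55, and its slopes were 0.02 ± 0.03 log2 per 10-fold dose (SE) with either chemical. Over all 26 arrays, after each pool's mean was subtracted, the 3 bright probe sets correlated with each other at r = 0.81 to 0.86, and U02316_s_at with them at 0.33 to 0.36. These points share arrays, dose and chemical. Nrg1 makes many splice forms, and which form each probe set reads was not tested.

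**Figure D1:**
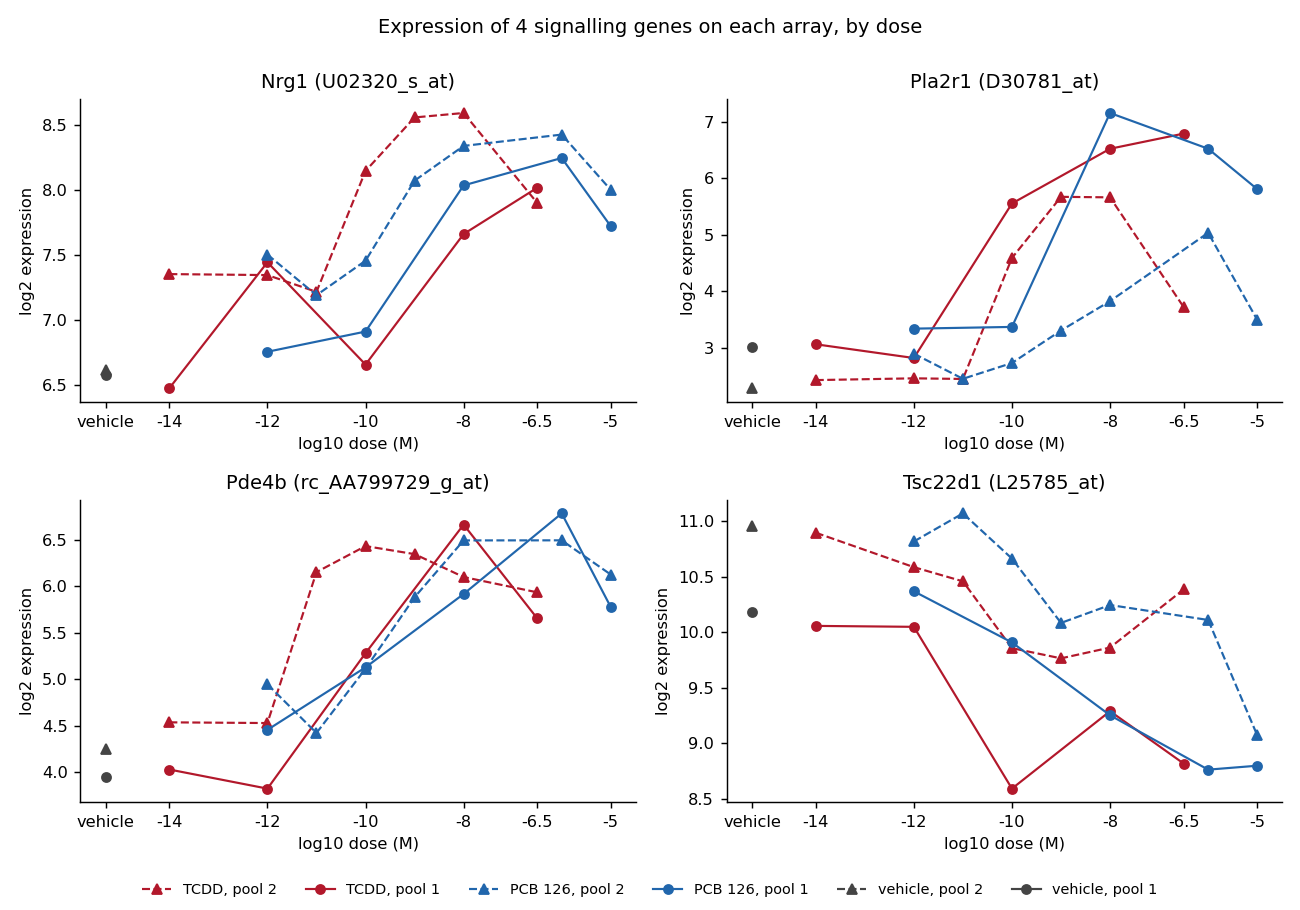
The log2 expression of 1 probe set per gene on each of the 26 arrays is plotted against log10 molar dose, with vehicle at the left. Triangles are pool 2 and circles pool 1, red is TCDD, blue PCB 126 and grey vehicle. Nrg1, Pla2r1 and Pde4b climb and Tsc22d1 declines toward the high doses, and Pla2r1 spans 2.29 to 7.16.

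**Figure D2:**
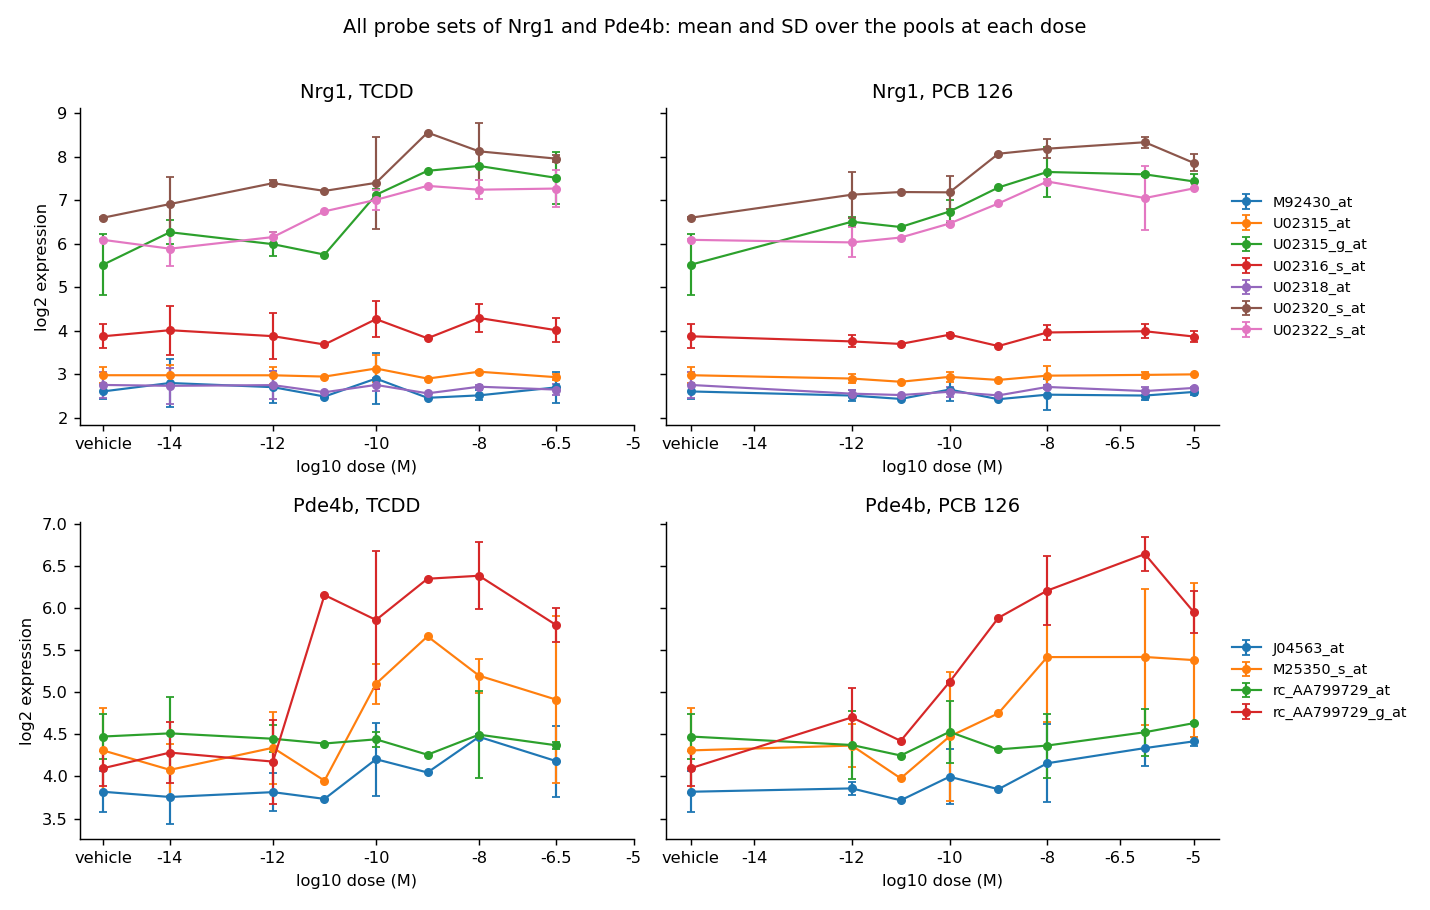
The mean log2 expression over the pools at each dose is plotted for the 7 probe sets of Nrg1 and the 4 of Pde4b, with SD bars where both pools have an array. At the high doses 3 Nrg1 lines climb and 4 stay level, while for Pde4b rc_AA799729_at stays level and the other 3 climb.

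Pla2r1 was higher with both chemicals at the high doses. With TCDD in pool 2, D30781_at read 2.29 with vehicle, then 2.43, 2.46, 2.45, 4.59, 5.67, 5.66 and 3.73 from 1e-05 to 316 nM. In pool 1 it read 3.01 with vehicle, then 3.07, 2.82, 5.56, 6.52 and 6.79. Below 0.1 nM all TCDD arrays stayed within the range of the vehicle arrays or just above it, and from 0.1 nM all were above both. With PCB 126 in pool 2 it read 2.90, 2.46, 2.74, 3.31, 3.83, 5.04 and 3.5 from 0.001 to 10000 nM. Pool 1 gave 3.34, 3.37, 7.16, 6.52 and 5.81. The steps came between 0.1 and 10 nM in pool 1 and were shallower in pool 2.

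At the 2 highest doses Pla2r1 was 3.03 ± 0.58 log2 (SE) above vehicle with TCDD and 2.57 ± 0.58 with PCB 126. Both vehicle arrays lay below 3.71, the median of all values, so no fold is given. All 4 arrays at those doses lay above the vehicle array of their own pool for each chemical. The probe set exceeded 3.71 on 12 arrays, all of them with chemical, and so passed the filter only through the groups where it is high. The TCDD array at 316 nM in pool 2 was well below that at 10 nM. Without it the TCDD slope was 0.61 ± 0.11 log2 per 10-fold dose, against 0.49 ± 0.11 with it.

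Pde4b was higher with both chemicals in 3 of its 4 probe sets. With TCDD in pool 2, rc_AA799729_g_at read 4.25 with vehicle, then 4.54, 4.53, 6.15, 6.43, 6.35, 6.10 and 5.94 from 1e-05 to 316 nM. In pool 1 it read 3.95 with vehicle, then 4.03, 3.82, 5.28, 6.66 and 5.66. The step came at 0.01 nM in pool 2, where pool 1 has no array, and the highest doses were not the highest values. With PCB 126 in pool 2 it read 4.95, 4.42, 5.11, 5.88, 6.49, 6.5 and 6.13 from 0.001 to 10000 nM. The pool 1 arrays read 4.46, 5.13, 5.92, 6.79 and 5.78. All PCB 126 arrays were above both vehicle arrays, and both pools were highest at 1000 nM.

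At the 2 highest doses this probe set was 1.99 ± 0.27 log2 (SE) above vehicle with TCDD, or 3.98-fold, and 2.20 ± 0.27 with PCB 126, or 4.59-fold. M25350_s_at was 1.68-fold above vehicle with TCDD and 2.13-fold with PCB 126, and J04563_at 1.42-fold and 1.47-fold. For M25350_s_at the TCDD arrays at those doses (4.21 to 5.61) overlapped the vehicle arrays (3.95 and 4.67), while the PCB 126 arrays (4.73 to 6.03) did not. For J04563_at they likewise overlapped with TCDD (3.89 to 4.49, against 3.64 and 3.99) and not with PCB 126 (4.19 to 4.48). Choosing the genes by dose favours such separation, and 4.44% of all probe sets lay wholly above vehicle with PCB 126. The last probe set, rc_AA799729_at, read 4.09 to 4.86 over all arrays and differed from vehicle by -0.04 ± 0.15 with TCDD and by 0.10 ± 0.15 with PCB 126. It names the same expressed sequence tag as rc_AA799729_g_at, and their levels correlated at r = 0.16 over the 26 arrays.

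Tsc22d1 was the only one of the 4 genes that was lower at the high doses. With TCDD in pool 2, L25785_at read 10.95 with vehicle, then 10.89, 10.58, 10.46, 9.86, 9.76, 9.86 and 10.38 from 1e-05 to 316 nM. In pool 1 it read 10.18 with vehicle, then 10.06, 10.05, 8.59, 9.29 and 8.82. Within each pool every TCDD array was below the vehicle array, and the lowest values lay at 1 nM in pool 2 and 0.1 nM in pool 1. With PCB 126 in pool 2 it read 10.82, 11.07, 10.66, 10.08, 10.24, 10.11 and 9.07 from 0.001 to 10000 nM. The pool 1 arrays read 10.37, 9.91, 9.25, 8.76 and 8.80. From 0.1 nM on, every PCB 126 array was below the vehicle array of its pool.

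At the 2 highest doses Tsc22d1 differed from vehicle by -0.98 ± 0.23 log2 (SE) with TCDD, 1.97-fold below, and by -1.38 ± 0.23 with PCB 126, 2.61-fold below. Pooled over the 2 pools the ranges overlapped, with 8.82 to 10.38 for TCDD against 10.18 and 10.95 for vehicle, and pool 2 was the higher pool at every dose given in both. With TCDD 4.64% of all probe sets lay wholly below vehicle. For PCB 126 they did not overlap, with 8.76 to 10.11, as in 6.14% of all probe sets that lay wholly below vehicle. Over the 26 pool-centred arrays Tsc22d1 correlated with U02320_s_at of Nrg1, Pla2r1 and rc_AA799729_g_at of Pde4b at r = -0.68, -0.77 and -0.77. Choosing genes that follow dose favours such values. With U02316_s_at of Nrg1 and rc_AA799729_at of Pde4b, which did not follow dose, r was -0.23 and -0.10.

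The slopes over dose were fitted with limma on all 5197 probe sets that passed the filter, of which 10 belong to the 4 genes. As these slopes chose the genes, they are descriptions, and nothing is read from the counts of calls against the shares over the array. At an adjusted p below 0.05, limma called 7 of the 10 for TCDD, 6 higher and 1 lower, where 3.1% of all probe sets were called. For PCB 126 it called 6 of the 10, 5 higher and 1 lower, where 4.25% of all were called. The probe sets called for both were U02320_s_at and U02322_s_at of Nrg1, J04563_at and rc_AA799729_g_at of Pde4b, and L25785_at of Tsc22d1. Not called were M25350_s_at of Pde4b for TCDD (0.16 ± 0.05 log2 per 10-fold dose, SE) and U02315_g_at of Nrg1 (0.16 ± 0.05) and Pla2r1 (0.36 ± 0.11) for PCB 126, and the flat U02316_s_at and rc_AA799729_at for both.

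Per 10-fold dose, Pla2r1 had a slope of 0.49 ± 0.11 log2 (SE) with TCDD and 0.36 ± 0.11 with PCB 126. The Pde4b probe set rc_AA799729_g_at had 0.28 ± 0.06 and 0.27 ± 0.06. For Nrg1, U02315_g_at had 0.25 ± 0.05 and 0.16 ± 0.05, U02322_s_at 0.21 ± 0.04 and 0.18 ± 0.04, and U02320_s_at 0.16 ± 0.04 and 0.17 ± 0.04. Tsc22d1 had -0.14 ± 0.04 with TCDD and -0.23 ± 0.04 with PCB 126. For scale, Cyp1b1 had 1.08 ± 0.21 with TCDD and 0.86 ± 0.22 with PCB 126, and Nqo1 had 0.40 ± 0.08 and 0.33 ± 0.08. The doses of the chemicals cover different ranges, so a slope is a mean over a different stretch of the response for each.

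The slopes of TCDD and PCB 126 were then set against each other, a difference that did not choose the genes, although picking genes that follow both favours similar slopes. Limma called none of the 10 probe sets, of which 0 had an unadjusted p below 0.05, and 0% of all 5197 (342 had an unadjusted p below 0.05). Tsc22d1 had the smallest p among them, a slope difference of 0.09 ± 0.05 log2 per 10-fold dose (SE, 95% interval -0.01 to 0.20), with a limma adjusted p of 0.577. For Pla2r1 the difference was 0.13 with an interval of -0.19 to 0.45, and for rc_AA799729_g_at of Pde4b 0.01 with -0.16 to 0.19. For U02320_s_at of Nrg1 it was 0.00 with an interval of -0.13 to 0.13. A p that misses the threshold does not show that the chemicals act alike.

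At equal doses the chemicals can be compared directly at 0.001, 0.01, 0.1, 1 and 10 nM, in 8 pairs of arrays. TCDD and PCB 126 are the only pair of compounds, and p-values were adjusted over all probe sets within each contrast, the mean over the 5 doses and each dose alone. Over the 5 doses limma called 0 of the 10 probe sets of these genes, where 0.115% of all 5197 were called. The unadjusted p was below 0.05 for 3 of the 10. Tsc22d1 was lower with TCDD by 0.49 ± 0.14 log2 (SE; estimate -0.49, interval -0.79 to -0.19, limma adjusted p 0.194), and in 7 of 8 pairs. Pla2r1 was 0.90 ± 0.35 higher with TCDD (interval 0.13 to 1.67, limma adjusted p 0.373), in 4 of 8 pairs. Its PCB 126 arrays from 0.001 to 1 nM read 2.46 to 3.37, all below the median of 3.71, so the size of that difference is no measure of a fold. Pde4b, by rc_AA799729_g_at, was 0.52 ± 0.16 higher (interval 0.16 to 0.87, limma adjusted p 0.240), in 5 of 8 pairs. None of the 3 differences passed the correction. With only the doses given in both pools the Pde4b difference was 0.13 ± 0.18.

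The doses differed in where these gaps lay. At 0.1 nM, Pla2r1 read 4.59 and 5.56 with TCDD in pool 2 and pool 1, against 2.74 and 3.37 with PCB 126, a difference of 2.02 ± 0.67 log2 (SE, limma adjusted p 0.332). Tsc22d1 read 9.86 and 8.59 with TCDD at that dose, against 10.66 and 9.91 with PCB 126, a difference of -1.06 ± 0.27 (limma adjusted p 0.237). In both genes the TCDD and PCB 126 arrays at 0.1 nM did not overlap, where 5.04% of all probe sets lay wholly higher and 8.68% wholly lower with TCDD, and 0.0385% were called. At 0.01 nM, in pool 2 alone, rc_AA799729_g_at of Pde4b read 6.15 with TCDD, against 4.42 with PCB 126. That difference, 1.73 ± 0.44, missed the threshold (limma adjusted p 0.0516) at a dose where 2.62% of all probe sets were called and where there is 1 array of each chemical.

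At 1 nM, also in pool 2 alone, Pla2r1 read 5.67 with TCDD, against 3.31 with PCB 126, a difference of 2.36 ± 0.95 (SE, limma adjusted p 0.999). At 0.001, 1 and 10 nM limma called 0% of all probe sets (101, 55 and 103 had an unadjusted p below 0.05). At 10 nM the differences averaged over the pools were smaller than at 0.1 and 1 nM, as the plot of equal doses shows. For Pla2r1 the pools went opposite ways at 10 nM. In pool 2 it lay 3.38 log2 above its vehicle array with TCDD and 1.54 with PCB 126. In pool 1 these were 3.51 and 4.15. Without the PCB 126 array at 0.001 nM in pool 2, which stood apart, the means over the doses were 1.00 ± 0.36 for Pla2r1, 0.54 ± 0.18 for rc_AA799729_g_at and -0.53 ± 0.15 for Tsc22d1. Again none passed the correction.

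**Figure D3:**
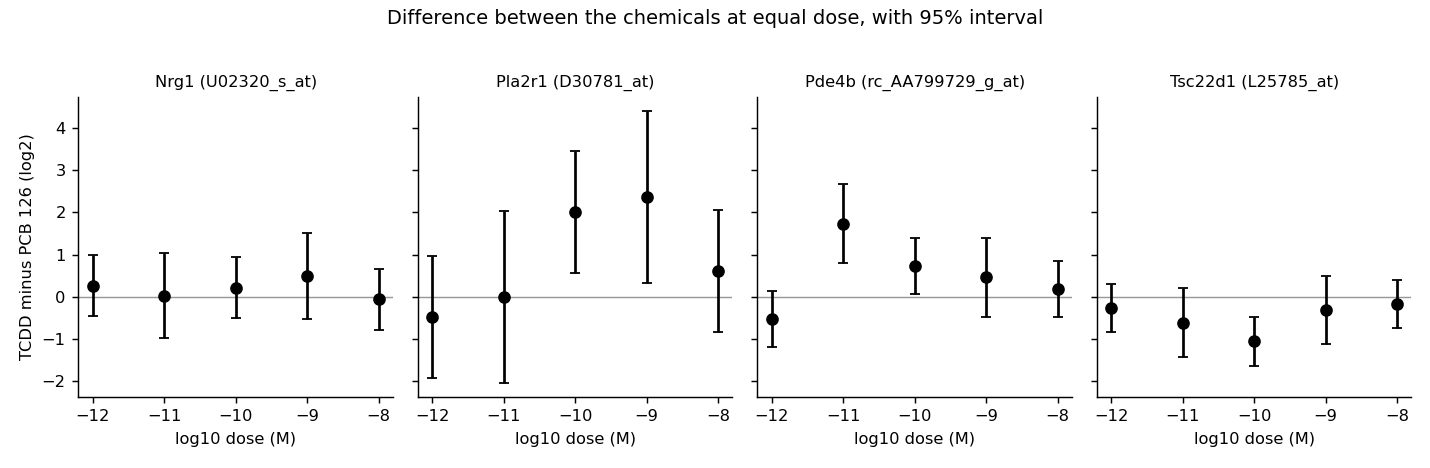
The difference TCDD minus PCB 126 in log2 expression at each of the 5 shared doses is plotted for 1 probe set per gene, with 95% intervals from limma. Pla2r1 lies above 0 at 0.1 and 1 nM, Pde4b at 0.01 nM and 0.1 nM and Tsc22d1 below 0 at 0.1 nM, and none of these passed the adjustment over all probe sets.

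The dose at which each gene passed the midpoint between its vehicle array and the mean of its 2 highest doses was read in each pool. With TCDD, Pla2r1 passed it at 0.1 nM in both pools, and Pde4b and Tsc22d1 at 0.01 nM in pool 2 and 0.1 nM in pool 1. With PCB 126, Pla2r1 and Tsc22d1 passed it at 1 nM in pool 2 and 10 nM in pool 1, and Pde4b at 1 nM and 0.1 nM. Pla2r1 in pool 2 passed only narrowly, at 3.31 against a midpoint of 3.28. Pde4b in pool 1 did so too, at 5.13 against 5.12, so these doses are not firm. For Pla2r1, Tsc22d1 and rc_AA799729_g_at, by which Pde4b was read here, all higher doses stayed past the midpoint. In pool 2 with TCDD, J04563_at and M25350_s_at of Pde4b passed at 1 and 0.1 nM, and not all higher doses stayed past. With PCB 126 they passed at 1000 and 1 nM in pool 2 and at 0.1 and 10 nM in pool 1. For Nrg1, U02322_s_at passed at 0.01 nM TCDD in pool 2 and 0.1 nM in pool 1, and at 1 nM PCB 126 in pool 2 and 10 nM in pool 1, with all higher doses past the midpoint. U02315_g_at passed at 0.1 nM TCDD in both pools, and all its higher doses stayed past. With PCB 126 it passed no later, at 0.1 nM in pool 1 and at 0.001 nM in pool 2, on the array that stood apart. U02320_s_at passed at 0.1 nM TCDD in pool 2 and at 10 nM PCB 126 in pool 1, and stayed past in both. With TCDD in pool 1 it passed at 0.001 nM and was back below at 0.1 nM. With PCB 126 in pool 2 it passed at 0.001 nM, on the array that stood apart, and not all higher doses stayed past. Without the 316 nM TCDD array of pool 2, a setting chosen after seeing the data, Tsc22d1 and Aldh3a1 passed at 0.1 nM in that pool, while Pla2r1, Pde4b and U02322_s_at passed at the same doses as with it. Cyp1a1 passed its midpoint at 0.001 nM with TCDD in both pools, below all of Pla2r1, Pde4b and Tsc22d1. With TCDD, Nqo1, Aldh3a1, Cyp1a2 and Cyp1b1 passed at 0.01 nM in pool 2 and 0.1 nM in pool 1, the same doses as Pde4b and Tsc22d1 with all arrays. Pool 1 has no arrays at 0.01 and 1 nM, so its midpoints lie on a coarser grid.

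**Figure D4:**
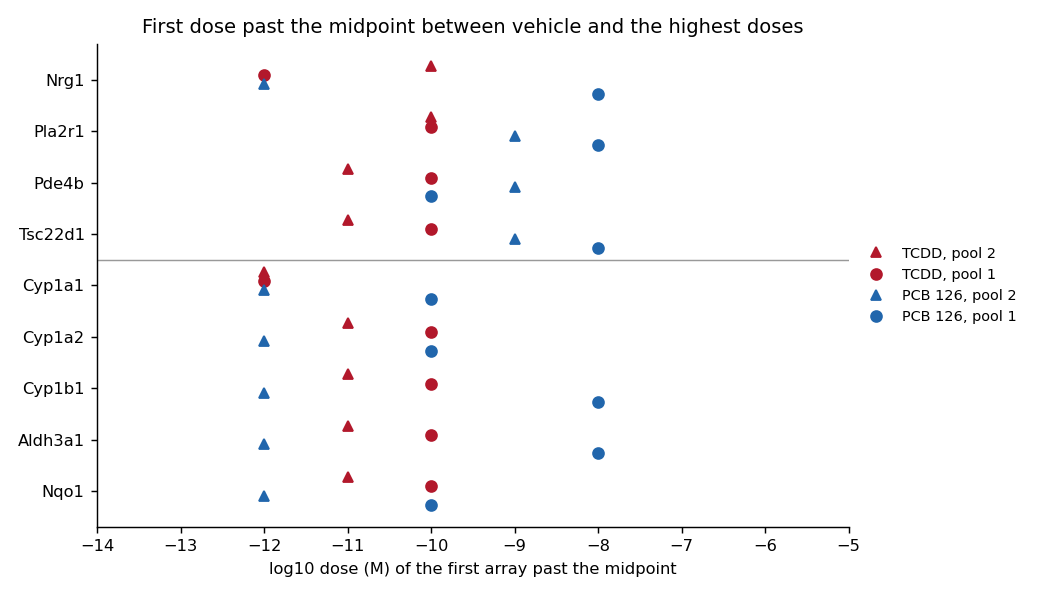
The first dose (log10 M) past the midpoint between vehicle and the mean of the 2 highest doses is plotted for 1 probe set of each of the 4 genes, above the line, and for 5 known AhR targets, below it. Cyp1a1 is at 0.001 nM TCDD (-12) in both pools, and in pool 2 all 5 AhR targets are at 0.001 nM PCB 126, the labelled dose of the array that stood apart.

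In the array labelled PCB 126 at 0.001 nM in pool 2, Cyp1a1 read 10.80, close to its 10.84 at 0.1 nM in the pool. There Pla2r1 read 2.90 and at 0.1 nM 2.74, against 2.29 with vehicle. Tsc22d1 read 10.82 and at 0.1 nM 10.66, against 10.95 with vehicle. For Pde4b, rc_AA799729_g_at read 4.95 and at 0.1 nM 5.11, against 4.25 with vehicle. Pla2r1 and rc_AA799729_g_at thus read nearer their values at 0.1 nM than vehicle in that array, while Tsc22d1 lay about midway. Such closeness is not particular to this array, since in pool 1 Pla2r1 lay 0.33 and 0.36 log2 above vehicle at 0.001 and 0.1 nM. These Pla2r1 readings of pool 2 were also below 3.71, the median of all values. U02320_s_at of Nrg1 read 7.5 on the pool 2 array at 0.001 nM, against 6.62 with vehicle.

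The pools differed in level for most genes on the array. Adjusted for dose group, limma called 7 of the 10 probe sets between pool 2 and pool 1, 3 higher and 4 lower, where 78.4% of all probe sets were called. Tsc22d1 was 0.85 ± 0.11 log2 (SE) higher in pool 2 (limma adjusted p 1.05e-05). Pla2r1 differed by -1.35 ± 0.29 (limma adjusted p 0.00074) and M25350_s_at of Pde4b by -0.74 ± 0.14, both lower in pool 2. U02320_s_at of Nrg1 was 0.47 ± 0.14 higher (limma adjusted p 0.0075). Within Pde4b the probe sets went opposite ways, since rc_AA799729_g_at was 0.32 ± 0.13 higher in pool 2 (limma adjusted p 0.0399). With each array centred on its median, which moves the median of all probe sets by 0.27, J04563_at and rc_AA799729_at of Pde4b were no longer called, at -0.03 and -0.10, and U02322_s_at of Nrg1 was, at 0.48.

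The slopes of Pla2r1 and of Tsc22d1 had the same direction in both pools, which choosing the genes by dose favours. Of the 10 probe sets, 8 had a positive slope in pool 2 and 7 in pool 1 with TCDD. With PCB 126 these were 9 and 8. Pla2r1 had 0.39 ± 0.16 log2 per 10-fold dose (SE) in pool 2 and 0.59 ± 0.16 in pool 1 with TCDD, and 0.25 ± 0.15 and 0.48 ± 0.17 with PCB 126. Tsc22d1 had -0.11 ± 0.05 in pool 2 and -0.17 ± 0.06 in pool 1 with TCDD, and -0.23 ± 0.05 and -0.24 ± 0.06 with PCB 126. The difference of the mean slopes between pool 2 and pool 1 was called for 0% of all 5197 probe sets (329 had an unadjusted p below 0.05), and for none of the 10 (limma adjusted p 0.777 to 0.957). For Pla2r1 it was -0.21 ± 0.16, with an interval of -0.55 to 0.12, which includes differences as large as the slope in pool 2. For U02320_s_at of Nrg1 it was -0.03, with an interval of -0.17 to 0.11.

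**Figure D5:**
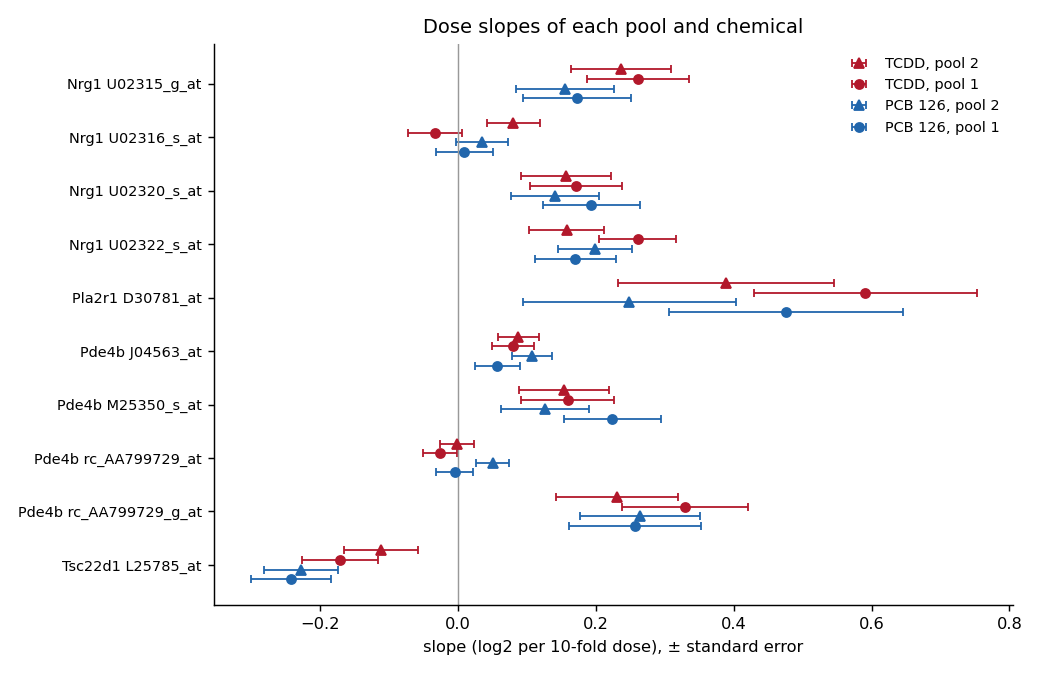
The dose slope (log2 per 10-fold dose, with standard error) of each pool and chemical is plotted for the 10 probe sets of the 4 genes that passed the filter. Triangles are pool 2 and circles pool 1, red is TCDD and blue PCB 126. The slopes of Pla2r1 are positive and those of Tsc22d1 negative in both pools and with both chemicals.

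Some responses looked flat or lower at the highest dose. Curvature of the trend was tested as a squared term of log10 dose for each chemical. A response flat at both low and high doses leaves little of such a term, so the test cannot decide whether a plateau is present. No probe set was called for TCDD or PCB 126, 0% of all in each (288 and 227 had an unadjusted p below 0.05). Of the 10, Tsc22d1 with TCDD alone had an unadjusted p below 0.05, with a curvature of 0.03 ± 0.01 (SE, limma adjusted p 0.846). From 10 to 316 nM TCDD, pool 2 values were lower for Nrg1, Pla2r1 and Pde4b and higher for Tsc22d1, while in pool 1 U02320_s_at and Pla2r1 were higher and rc_AA799729_g_at and Tsc22d1 lower. Ordered by level after adjustment for pool, the 15 groups had no gap between neighbours above 2 SE in any of the 10 probe sets. The top group was PCB 126 at 1000 nM for U02320_s_at and rc_AA799729_g_at, TCDD at 1 nM for Pla2r1 and PCB 126 at 0.01 nM for Tsc22d1, whose lowest was PCB 126 at 10000 nM.

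Other genes followed the 4 closely over the 26 pool-centred arrays, among 3033 compared by their brightest probe set. These are correlations of arrays that share dose, chemical and pool. For Nrg1 they were Hal (histidine ammonia-lyase, r = 0.91), Slc17a1 (a sodium phosphate transporter, 0.90) and Ahr itself (0.88). Ahr had slopes of 0.14 ± 0.03 log2 per 10-fold dose (SE) with TCDD and 0.11 ± 0.03 with PCB 126. For Pla2r1 they were Serping1 (the C1 inhibitor of complement), Lbp (the lipopolysaccharide binding protein) and Cxcl6 (a chemokine), each at r = 0.91. For Pde4b they were Slc41a2 (a magnesium transporter, r = 0.96), Lcn2 (lipocalin 2, 0.93) and Pon1 (paraoxonase 1, 0.93). For Tsc22d1 they were Acta1 (skeletal muscle actin, r = 0.92), Myl9 (a myosin light chain, 0.91) and Mgst3 (a microsomal glutathione transferase, 0.91). By Spearman's rho the same 3 led for Nrg1 and Pla2r1, Tat led for Pde4b, and St6gal1 and Tagln followed Acta1 for Tsc22d1.

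Partners of the 4 genes in their pathways were called in 1 of 76 cases (1.32%) with TCDD, where 3.1% of all probe sets were called, and in 4 of 76 (5.26%) with PCB 126, where 4.25% were. The median slope of each of the 4 pathway lists lay between -0.02 and 0.01 log2 per 10-fold dose with either chemical, against -0.01 with TCDD and 0.01 with PCB 126 over all probe sets tested. Of 18 neuregulin and ErbB genes that passed the filter, other than Nrg1, limma called 1 higher with TCDD, Errfi1, a feedback inhibitor of EGF receptors (0.09 ± 0.02 log2 per 10-fold dose, limma adjusted p 0.0411). With PCB 126 it called 3 lower, the EGF receptor Egfr (-0.11 ± 0.03), the phosphatase Dusp1 (-0.15 ± 0.04) and the transcription factor Jun (-0.19 ± 0.04). The neuregulin receptor Erbb3 had slopes of 0.01 ± 0.02 with TCDD and 0.02 ± 0.02 with PCB 126. Of 24 cyclic AMP and phosphodiesterase genes, 0 were called with TCDD and 1 was lower with PCB 126, the cyclic AMP response factor Crem (-0.10 ± 0.02, limma adjusted p 0.0125). Pde4d, another member of the Pde4 family, had slopes of -0.01 ± 0.01 and 0.02 ± 0.01, and Pde3b had -0.04 ± 0.02 and -0.01 ± 0.02.

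Of 13 secretory phospholipase A2 and eicosanoid genes, limma called 0 with either chemical. The smallest p values with TCDD belonged to Anxa2 and Anxa1, annexins that bind phospholipids (-0.05 ± 0.02 and -0.09 ± 0.04 log2 per 10-fold dose), and to Lta4h, a leukotriene enzyme (0.08 ± 0.03). Of 21 TSC22 and TGF-beta genes limma likewise called 0 with either. Nearest with TCDD were Id3 (0.11 ± 0.03, limma adjusted p 0.0599), Klf10 (-0.10 ± 0.03, 0.0658) and Inhbe (-0.10 ± 0.04, 0.202). Of the 9 measured genes of the AhR battery, 6 were called higher with TCDD and 4 with PCB 126, with median slopes of 0.40 and 0.33.

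Few markers of other liver cells were called. Of 4 Kupffer cell and macrophage markers that passed the filter, limma called Lyz2 lower with each chemical and no other, with median slopes of -0.01 log2 per 10-fold dose with TCDD and 0.04 with PCB 126. The summed level of all 6 on the array was 7.64 to 8.46 log2 at the 2 highest doses, against 8.69 and 9.05 with vehicle. For scale here and for the sums below, 4.64% of all probe sets with TCDD and 6.14% with PCB 126 lay wholly below vehicle. This sum was led by Lyz2, with a mean of 7.86, against 4.76 or less for the others. Lyz2 had slopes of -0.19 ± 0.04 per 10-fold dose with TCDD and -0.17 ± 0.04 with PCB 126. Of 6 stellate cell and fibroblast markers that passed, limma called 0 with TCDD (1 had an unadjusted p below 0.05) and only Tagln, lower, with PCB 126, and the median slopes were 0.01 and 0.00. The summed level of all 9 was 8.11 to 10.44, against 10.76 and 11.26 with vehicle, and was led by Tagln, with slopes of -0.28 ± 0.09 with TCDD and -0.48 ± 0.09 with PCB 126. Des at 1.67 and Col1a2 at 2.31 had the lowest means of the 9, while Acta2 averaged 5.60, Timp1 6.17 and Tagln 9.40. Vim lay between Timp1 and Tagln, and Pdgfrb, Col1a1 and Col3a1 lay between Col1a2 and Acta2. The sums of 4 endothelial markers (4.93 to 5.46, against 5.12 and 5.53) and 4 cholangiocyte markers (5.86 to 6.92, against 6.42 and 7.51) overlapped between the high doses and vehicle. Tsc22d1 went down with Tagln and Acta1, and the part of these cells in its level was not tested. Of 8 hepatocyte markers that passed, limma called 1 lower with TCDD and 1 higher with PCB 126. The median slopes were -0.05 and -0.02. Cps1 of the urea cycle had a slope of -0.21 ± 0.05 with TCDD. Tat, a tyrosine aminotransferase, had 0.12 ± 0.04 with TCDD and 0.20 ± 0.04 with PCB 126.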

How the data were processed

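The submitters' processing notes name GCRMA 2.8.0 and RMA, and the deposited values are log2 expression, 1 column per array. Its settings are not stated there. GCRMA pulls dim signals together, which compresses low differences. All columns belonged to a sample. The genes, probe sets and gene lists were chosen with earlier results of these data known.

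Of 8799 probe sets, 59 controls were left out and 5197 kept whose second-highest value was above the median of all, 3.71. Of the 8740, 7006 name 1 gene, 308 several and 1426 none in the platform table. Tests were made in R 4.3.3 by limma 3.58.1, with trended and robust eBayes and Benjamini-Hochberg adjustment over the 5197 and a threshold of 0.05. The trend model held pool, chemical and, for each chemical, its own slope over log10 dose. The group model held pool and 15 groups, and its groups of 1 array are assumed to vary like the others. The scripts were tested on simulated data. A gene's brightest probe set stood for it. Named genes were all members, the 3 genes most like each by Pearson's r, called list members or else up to 3 with the smallest p for TCDD, and 5 AhR targets; Erbb3, Pde4d and Pde3b were also named after their values were seen.

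Pool was a block because the labels place its arrays in 1 set of animals' cells. In 11 groups with both pools, deviations of same-pool arrays correlated at r = 0.461 to 0.892. Alternatives were scaling, filter, variance model, block, doses used, vehicle placement and each array left out.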

Additional observations from a re-analysis of the deposited data

Results flagged for a closer look

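With PCB 126, U02316_s_at of Nrg1 differed from vehicle in opposite directions in the pools at the 2 highest doses. In pool 2 it read 4.10 and 3.77, against 3.67 with vehicle, and in pool 1 it read 3.87 and 3.96, against 4.07 with vehicle. The difference from vehicle was 0.42 log2 higher in pool 2 than in pool 1, and this difference was not tested. It was the only 1 of 30 such comparisons of direction among the 10 probe sets, and the test of the pool slopes called none of them.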

How the results depend on the processing

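No member was called for the slope difference or the matched-dose difference between the chemicals, or for the slope difference between pools, under any alternative. Without the block on pool (no replicate block), counts over all probe sets were 39 for the TCDD slope, 56 for the PCB 126 slope, 0 for the matched-dose difference, 27 for the TCDD high doses and 39 for the PCB 126 high doses, against 161, 221, 6, 117 and 158 with it, and 17 values of the members lost their call. Centring the arrays gave 103, 23 and 66 for the TCDD slope, the matched-dose difference and the TCDD high doses, and 3 for the pool slope difference, against 0. With only the arrays of 1 chemical the slope counts were 46 for TCDD and 367 for PCB 126. With the doses of both pools alone they were 104 for PCB 126, 0 for the matched-dose difference and 1 for the pool slope difference. Vehicle placed 1 decade below the lowest dose gave 473 for PCB 126, plain eBayes 13 for the matched-dose difference, and no filter 7447 for the pool difference, against 4075, with more probe sets tested.

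Leaving out 1 array at a time gave 81 to 257 for the TCDD slope, 53 to 371 for PCB 126, 0 to 0 for their difference, 0 to 55 for the matched-dose difference, 3961 to 4076 for the pool difference and 0 to 4 for the pool slope difference. It gave 0 to 4 and 0 to 2 for the curvatures of TCDD and PCB 126, and 52 to 165 and 80 to 180 for their high doses. The slope counts moved most without the 316 nM TCDD arrays of pool 1 (81) and pool 2 (257) and the 10 nM array of pool 2 (105), and for PCB 126 without 0.001 nM of pool 1 (53), 0.01 nM (134) and 10000 nM (113) of pool 2 and 1000 nM of pool 1 (371). The matched-dose count was 55 without the 0.1 nM TCDD array of pool 2 and 0 without either 10 nM PCB 126 array. Member slopes kept their sign in all 34 alternatives, except rc_AA799729_at with TCDD (33). With TCDD, U02320_s_at was called in 22 of 34 and Tsc22d1 in 24. The slope of Pla2r1 with PCB 126 was called in 4 of 34, and that of M25350_s_at with TCDD in 1, without the 316 nM array of pool 2 (0.21, adjusted p 0.00628). With 1 array per pool and dose, a difference at 1 dose needs to be large to be called, and dim probe sets give no measure of a fold.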
